A study of Homo sapiens with 12 samples.

Results

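The 10 genes described here are read-outs and brakes of ERK signalling: the phosphatases DUSP4, DUSP5 and DUSP6, the Sprouty genes SPRY2 and SPRY4, the Sprouty-related genes SPRED1 and SPRED2, the ETS-family transcription factors ETV4 and ETV5, and PHLDA1. They were taken by symbol from the deposited count table, which lists 56609 symbols. All 10 were found, and all 10 were among the 21698 genes with enough counts to be tested. They were measured in A375, an established human melanoma cell line that carries an activating BRAF mutation.

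RNA from which ribosomal RNA had been removed was sequenced from 12 samples in 4 groups of 3 replicates. The groups were wild-type A375 cells with DMSO, wild-type cells with 500 nM JQ1, MAPKAPK2-knockout cells with DMSO and MAPKAPK2-knockout cells with 500 nM JQ1, each for 48 h. JQ1 is an inhibitor of the BET bromodomain proteins, which bind acetylated chromatin and help transcription by RNA polymerase II; DMSO is its solvent. MAPKAPK2 encodes MK2, a kinase activated by p38, and the knockout was made with CRISPR/Cas9 to study resistance to BET inhibitors. The labels do not say whether the knockout cells are 1 clone or a pool, nor whether replicates are separate cultures, so the p-values measure only the spread between these samples. Titles name the samples without JQ1 untreated and the treatment field names them DMSO.

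Library totals ran from 25316899 to 34594295 estimated counts. Values are given as CPM, each library's counts scaled to a common total after correction for composition, as replicate 1, 2 and 3 or as mean ± SD (n = 3). With DMSO, MAPKAPK2 itself stood at 89.6 ± 2.20 CPM in wild-type and 12.4 ± 1.15 CPM in knockout cells, and with JQ1 at 117 ± 4.31 and 14.4 ± 1.61 CPM. Of the melanocyte-lineage markers, SOX10 was present at group means of 437 to 563 CPM, while the pigment genes MLANA, PMEL, TYR, DCT and TYRP1 were near 0. Markers of keratinocytes, endothelium and immune cells summed to 5.96 to 10.6 CPM in a library. Knockout JQ1 replicate 3 stood apart from its replicates: 4 abundant noncoding RNAs held 14.6% of its counts, against 12.3% and 11.03% in replicates 1 and 2 and 9.42% to 9.76% in wild-type DMSO.

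In RefSeq's annotation of GRCh38.p14 the genes lie apart, on different chromosomes except for DUSP6 and PHLDA1. DUSP4 lies at chr8:29333064-29350684, DUSP5 at chr10:110497907-110511533 and DUSP6 at chr12:89347235-89352501. SPRY2 lies at chr13:80335976-80341126 and SPRY4 at chr5:142310430-142325021. SPRED1 lies at chr15:38252836-38357249 and SPRED2 at chr2:65307175-65432599. ETV4 lies at chr17:43527846-43546340, ETV5 at chr3:186046314-186109089 and PHLDA1 at chr12:76025447-76031776. None of the 10 shares chromosome 1 with MAPKAPK2.

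In the ERK pathway, RAS activates RAF kinases, RAF activates MEK, and MEK phosphorylates ERK, which drives transcription through ETS-family and other factors. The pathway switches on its own brakes. DUSP4 and DUSP5 are nuclear phosphatases and DUSP6 is a cytoplasmic phosphatase that remove activating phosphates from ERK, while Sprouty and SPRED proteins act further up, at the level of RAS and RAF. ETV4 and ETV5 carry part of the transcriptional output, and PHLDA1 is a transcript commonly used in signatures of MEK and ERK activity. In melanoma with mutant BRAF the pathway is active without a growth signal, and these transcripts are used to follow it.

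DUSP6, SPRY4 and PHLDA1 were the genes of the 10 that differed between genotypes in both treatments, 1 of them upward and the other two downward, so the 250 bases before their starts are shown. The sequences are from RefSeq, GRCh38.p14, minus strand, written 5′ to 3′ and ending at the base before the start. The windows are chr12:89352502-89352751 for DUSP6, chr12:76031777-76032026 for PHLDA1 and chr5:142324248-142324497 for SPRY4, the last of which lies inside the gene's full extent. Capitals mark the matches of the motifs searched.
DUSP6: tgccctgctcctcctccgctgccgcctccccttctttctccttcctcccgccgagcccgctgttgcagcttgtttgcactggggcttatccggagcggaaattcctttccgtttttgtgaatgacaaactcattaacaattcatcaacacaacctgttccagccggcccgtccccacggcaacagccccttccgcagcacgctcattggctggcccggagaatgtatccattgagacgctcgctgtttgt
PHLDA1: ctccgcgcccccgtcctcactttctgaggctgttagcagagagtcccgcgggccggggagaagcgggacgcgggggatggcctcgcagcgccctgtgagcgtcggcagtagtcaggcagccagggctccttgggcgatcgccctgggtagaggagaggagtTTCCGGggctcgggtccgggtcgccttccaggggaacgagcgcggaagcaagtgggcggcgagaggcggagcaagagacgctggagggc
SPRY4: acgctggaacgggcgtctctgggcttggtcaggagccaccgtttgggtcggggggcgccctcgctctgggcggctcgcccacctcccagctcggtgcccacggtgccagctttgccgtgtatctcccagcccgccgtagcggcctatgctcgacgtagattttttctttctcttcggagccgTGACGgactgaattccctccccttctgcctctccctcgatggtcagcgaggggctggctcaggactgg
Both strands were searched for the string CCGGAA, called the ETS core here, and for the core TGACG of cyclic AMP response elements. Also searched were the AP-1 site TGANTCA and the CArG box of serum response elements. None of these 4 motifs contains another. In 35116 windows of this length, 14.5% held the ETS core, 21.2% held TGACG, 6.57% held the AP-1 site and 1.16% held the CArG box. PHLDA1 had 1 ETS core, 89 bases before the start and read as its reverse complement TTCCGG, and SPRY4 had 1 TGACG, 68 bases before the start. The DUSP6 window held none of these motifs. Shorter strings such as GGAA were not counted, and GGAA occurs in each window printed above. Windows were matched for 6 of the 10 genes; those of SPRED1 and SPRED2 held none of the 4 motifs, and 1 of the SPRY2 windows held 1 ETS core and 1 TGACG. A match is a string of letters and not a shown binding site.

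The first comparison asked what 48 h of JQ1 did to the 10 genes in wild-type cells. DUSP4, DUSP5, DUSP6 and PHLDA1 rose, by 1.46, 1.52, 1.20 and 1.13 fold. These 4 of 10 passed an adjusted p of 0.05 in edgeR's quasi-likelihood test, with p adjusted over all genes by the Benjamini-Hochberg method. SPRY4, SPRED1 and SPRED2 were lower in every JQ1 library than in any DMSO library, but none of the 10 passed as lower. Of all genes tested, 33.1% passed, 16.9% higher and 16.2% lower. The median log2 fold change of the 10 was 0.16, and that of all genes tested was -0.03. Replicate ranges of JQ1 and DMSO did not overlap for any of the 10, a property shared by 50.4% of all genes tested. In bulk RNA, a change in every cell and a change in the share of cells that hold the RNA cannot be told apart.

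**Figure D1:**
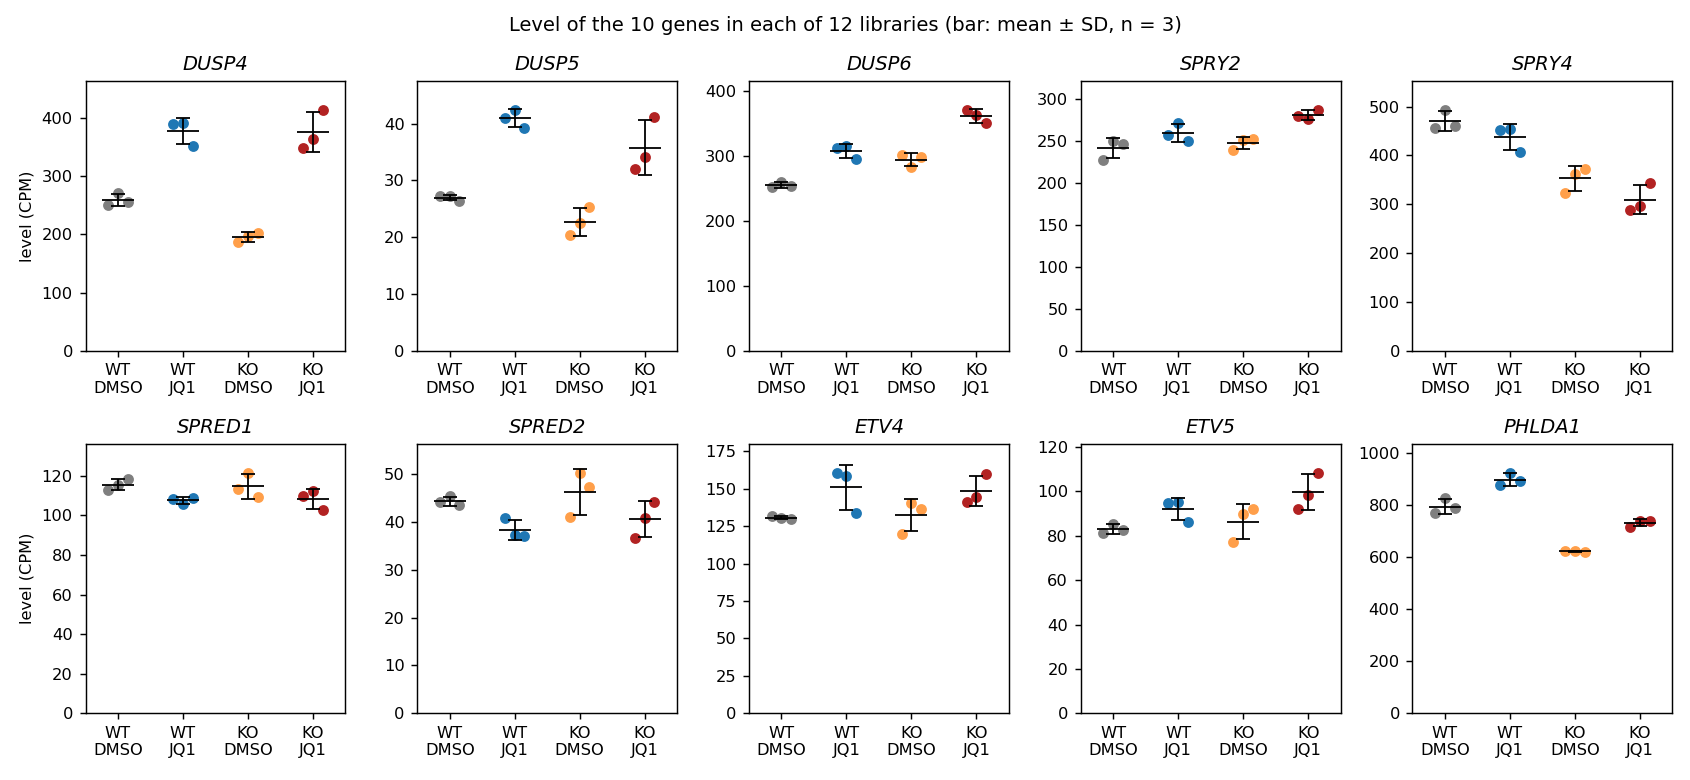
CPM of each of the 10 genes (vertical axes, starting at 0) in the 12 libraries, by group; each point is 1 library and each bar the mean of 3. DUSP4 points of both JQ1 groups lie above those of both DMSO groups, and PHLDA1 takes 4 separate levels, lowest in knockout DMSO.

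The ERK phosphatases moved most. DUSP4 was at 251, 272 and 255 CPM in wild-type DMSO and at 391, 392 and 352 CPM in wild-type JQ1. All JQ1 libraries were above all DMSO libraries, and the step was 0.54 on the log2 scale (SE 0.068, adjusted p = 2.52e-05, edgeR). DUSP5, the least abundant of the phosphatases by CPM without regard to length, went from 27.2, 27.3 and 26.4 to 41.1, 42.4 and 39.3 CPM. The rise was 0.60 on the log2 scale (SE 0.094, adjusted p = 0.000187, edgeR), also without overlap. DUSP6 went from 252, 260 and 254 to 311, 315 and 295 CPM, a smaller step of 0.27 on the log2 scale (SE 0.048, adjusted p = 0.000657, edgeR).

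None of the Sprouty and SPRED genes passed in wild type. SPRY2, which restrains signalling from receptor tyrosine kinases, was at 227, 249 and 246 CPM in DMSO and at 257, 271 and 250 CPM in JQ1 (log2 fold change 0.11, adjusted p = 0.140, edgeR). SPRY4, of the same family, was at 456, 493 and 461 CPM in DMSO and at 451, 455 and 408 CPM in JQ1 (-0.10, adjusted p = 0.325, edgeR). For both genes the DMSO and JQ1 ranges lay next to each other without overlap. SPRED1 was at 113, 115 and 119 CPM in DMSO and at 108, 106 and 109 CPM in JQ1, a log2 difference of -0.10 with a 95% interval of -0.22 to 0.02. SPRED2, at 44.1, 45.3 and 43.4 CPM in DMSO and 40.7, 37.1 and 37.0 CPM in JQ1, differed by -0.21 (adjusted p = 0.0706, edgeR). The SPRED values were thus lower in JQ1 in every library, but neither difference passed; SPRED2 passed as lower in 4 of 20 alternatives and SPRED1 in 1.

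Among the output genes, ETV4 was at 132, 130 and 130 CPM in DMSO and at 161, 158 and 134 CPM in JQ1. Its log2 difference of 0.21 just missed the threshold (adjusted p = 0.0545, edgeR) and passed in 8 of 20 alternatives, and JQ1 replicate 3 lay near the DMSO libraries. ETV5 was at 81.1, 85.5 and 82.4 CPM in DMSO and at 94.6, 95.3 and 86.3 CPM in JQ1 (0.15, adjusted p = 0.153, edgeR). PHLDA1 went from 768, 826 and 789 to 879, 925 and 891 CPM, a log2 difference of 0.18 (SE 0.044, adjusted p = 0.00628, edgeR). The PHLDA1 rise was lost when counts were scaled by library totals alone (0.05, adjusted p = 0.458, edgeR), a scaling that moves the median of all genes by -0.13 here. Under that scaling 3 of the 10 genes passed higher and 3 lower, instead of 4 and 0. Fitted with only these 6 libraries, 8 of the 10 passed, 7 higher and 1 lower. The rises of DUSP4, DUSP5 and DUSP6 passed in all 20 alternative analyses.

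In knockout cells JQ1 raised the same 4 genes and also SPRY2 and ETV5. The 6 calls of 10, all higher, stand beside 34.4% of all genes tested that passed, 16.7% higher and 17.8% lower. The median of the 10 was 0.19 and that of all genes was 0.00. Replicate ranges did not overlap for 7 of the 10, against 42.3% of all genes; the exceptions were SPRY4, SPRED1 and SPRED2.

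DUSP4 rose by 1.92 fold in the knockout, from 187, 197 and 203 CPM in DMSO to 349, 364 and 414 CPM in JQ1 (log2 fold change 0.94, SE 0.069, adjusted p = 1.08e-07, edgeR). DUSP5 went from 20.4, 22.4 and 25.3 to 32.1, 34.0 and 41.2 CPM (0.66, adjusted p = 8.62e-05, edgeR). DUSP6 went from 301, 283 and 298 to 371, 362 and 350 CPM (0.30, adjusted p = 0.00023, edgeR). The 95% intervals of DUSP4 and DUSP5 overlapped in the knockout, 0.80 to 1.09 and 0.45 to 0.86, as they did in wild type, 0.40 to 0.69 and 0.40 to 0.80. PHLDA1 went from 624, 622 and 621 to 717, 740 and 739 CPM (0.23, adjusted p = 0.000768, edgeR). With library totals alone the PHLDA1 call was lost here too (0.12, adjusted p = 0.0573, edgeR).

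SPRY2 was at 239, 251 and 253 CPM in knockout DMSO and at 280, 276 and 287 CPM in knockout JQ1 (0.18, adjusted p = 0.0146, edgeR). The SPRY2 call was lost without knockout DMSO replicate 1 (adjusted p = 0.0607), and under 3 other settings. ETV5, at 77.3, 89.8 and 92.0 CPM in DMSO and 92.2, 98.6 and 108 CPM in JQ1, was barely past the threshold (0.21, adjusted p = 0.0473, edgeR). The ETV5 call held in 6 of 20 alternatives and was lost without knockout JQ1 replicate 3 (0.14, adjusted p = 0.140). Both calls are therefore fragile beside those of the phosphatases.

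ETV4 was at 120, 140 and 136 CPM in knockout DMSO and at 141, 144 and 160 CPM in knockout JQ1 (0.17, adjusted p = 0.120, edgeR). SPRY4 was the gene with the most negative JQ1 value along with SPRED2, at 323, 363 and 373 CPM in DMSO and 289, 296 and 343 CPM in JQ1 (-0.19, adjusted p = 0.0615, edgeR). Without knockout JQ1 replicate 3, which had the highest of these JQ1 values, SPRY4 passed as lower (-0.27, adjusted p = 0.00445, edgeR), and so did SPRED2 (-0.25, adjusted p = 0.0260, edgeR). SPRED2 was at 41.01, 50.2 and 47.3 CPM in DMSO and 36.6, 40.7 and 44.2 CPM in JQ1. SPRED1 was at 113, 122 and 109 CPM in DMSO and 110, 112 and 103 CPM in JQ1. The ranges of both SPRED genes overlapped. With library totals alone 3 of the 10 genes passed higher and 3 lower.

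**Figure D2:**
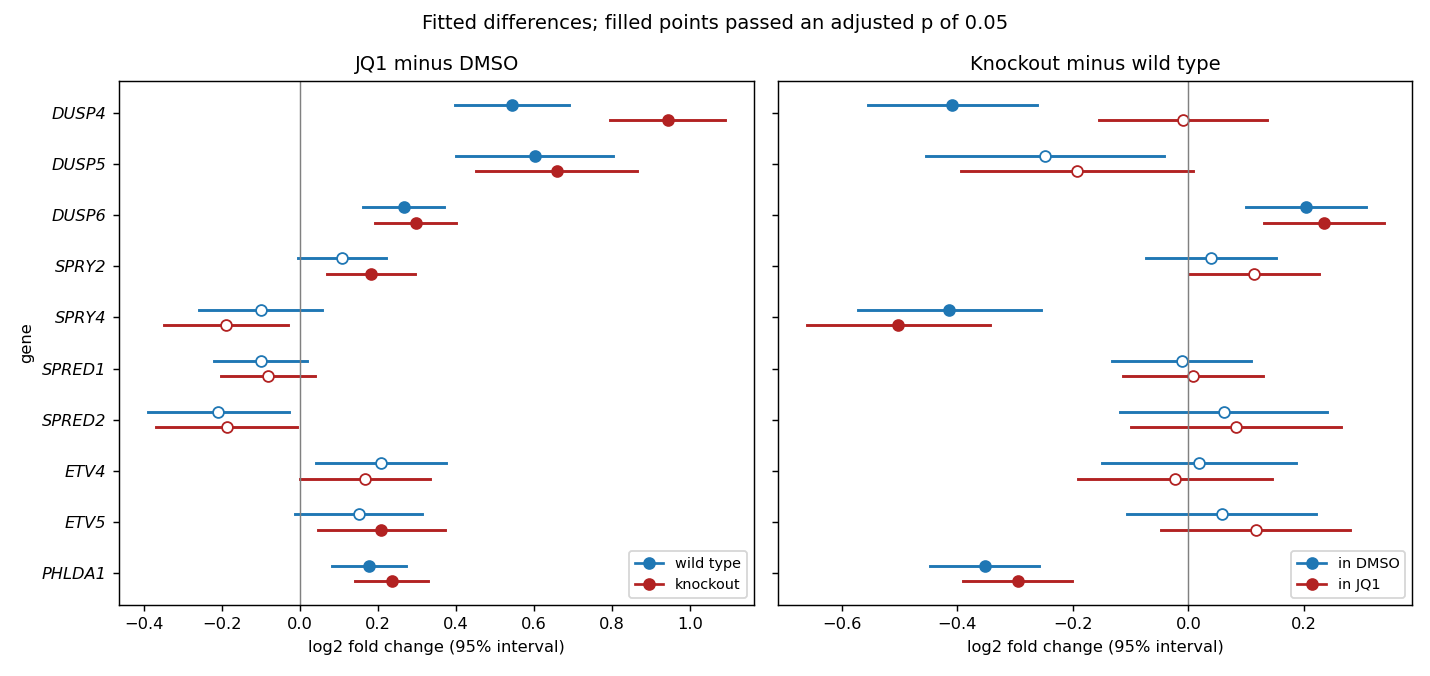
Fitted log2 fold changes (horizontal axes) of the 10 genes with 95% intervals; left, JQ1 minus DMSO in each genotype, and right, knockout minus wild type in each treatment. Filled points passed an adjusted p of 0.05: DUSP4, DUSP5, DUSP6 and PHLDA1 on the left in both genotypes, and DUSP6, SPRY4 and PHLDA1 on the right in both treatments.

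The next comparison set knockout against wild-type cells without the drug. Loss of MAPKAPK2 and any other difference between these cells cannot be told apart here. DUSP4, SPRY4 and PHLDA1 fell, to 0.753, 0.751 and 0.783 of the wild-type level, and DUSP6 rose to 1.15 of it. These 4 calls of 10 stand beside 7.92% of all genes tested, 3.47% higher and 4.44% lower. The median of the 10 was 0.00, as was that of all genes, and the calls went both ways. Replicate ranges of the genotypes did not overlap for 5 of the 10, the 4 called genes and DUSP5, against 29.6% of all genes.

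DUSP4 was at 187, 197 and 203 CPM in the knockout, each below the lowest wild-type library at 251 CPM (-0.41, SE 0.068, adjusted p = 0.0014, edgeR). SPRY4 was at 323, 363 and 373 CPM against 456, 493 and 461 CPM in wild type (-0.41, SE 0.074, adjusted p = 0.00227, edgeR). PHLDA1 had closely spaced knockout values, 624, 622 and 621 CPM, against 768, 826 and 789 CPM (-0.35, SE 0.044, adjusted p = 0.000127, edgeR). These 3 falls passed in all 20 alternatives. DUSP6 moved the other way, to 301, 283 and 298 CPM from 252, 260 and 254 CPM (0.20, SE 0.048, adjusted p = 0.0165, edgeR).

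The DUSP6 call without drug was less stable than the falls. It was lost without wild-type DMSO replicate 1 (adjusted p = 0.0707) or 3 (0.0614), without knockout DMSO replicate 1 (0.0632) or 3 (0.0653), with library totals alone (0.16, 0.0721) and with no low-count filter (0.0666), all by the edgeR test. DUSP5 was at 20.4, 22.4 and 25.3 CPM in the knockout and 27.2, 27.3 and 26.4 CPM in wild type, a log2 difference of -0.25 (adjusted p = 0.154, edgeR). It passed as lower without knockout JQ1 replicate 3 (-0.25, adjusted p = 0.0369, edgeR), which lies outside this comparison and enters through the shared estimate of spread. SPRY2, SPRED1, SPRED2, ETV4 and ETV5 had overlapping ranges, with log2 differences from -0.01 for SPRED1 to 0.06 for SPRED2. The SPRED1 interval, -0.13 to 0.11, bounds the size of any difference there.

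Under JQ1 the knockout differed from wild type in DUSP6, which was higher, and in SPRY4 and PHLDA1, which were lower. These 3 calls of 10 stand beside 8.57% of all genes tested, 3.01% higher and 5.56% lower. Ranges did not overlap for 4 of the 10, the called genes and SPRY2, against 23.1% of all genes. The comparison in JQ1 shares no library with that in DMSO. Both rest on the shared estimate of spread and on the same genotypes, so they are not fully independent.

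DUSP6 was at 371, 362 and 350 CPM in knockout JQ1 and at 311, 315 and 295 CPM in wild-type JQ1 (0.23, SE 0.048, adjusted p = 0.00645, edgeR), and the call was lost when only these 6 libraries were fitted (adjusted p = 0.0614). SPRY4 was at 289, 296 and 343 CPM against 451, 455 and 408 CPM, the largest genotype difference among the 10 in either treatment (-0.50, SE 0.074, adjusted p = 0.000482, edgeR). PHLDA1 was at 717, 740 and 739 CPM against 879, 925 and 891 CPM (-0.30, SE 0.044, adjusted p = 0.000543, edgeR). The SPRY4 and PHLDA1 calls passed in all 20 alternatives. Markers of cell state moved with genotype as well. Of 5 tested melanocyte markers, MITF was lower in the knockout (-0.58 in DMSO and -0.37 in JQ1), S100B was higher (0.45 and 0.41), and SOX10 differed by 0.0046 and 0.00048 and did not pass. Of 4 dedifferentiation markers, 3 were lower in each treatment and none higher: NGFR (-2.24 and -1.35) and SOX9 in both, AXL in DMSO (-0.32) and EGFR in JQ1 (-0.33). Of all genes tested, 4.44% in DMSO and 5.56% in JQ1 passed as lower. SOX9 was scarce, at 0.537 ± 0.104 CPM in wild-type and 0.0664 ± 0.0576 CPM in knockout cells with DMSO. The summed melanocyte markers ran from 501 to 516 CPM in wild-type and from 460 to 535 CPM in knockout libraries with DMSO, and from 587 to 677 and from 560 to 766 CPM with JQ1. The part of these markers in the values of the 10 genes was not tested.

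DUSP4, lower in the knockout without drug, was at 349, 364 and 414 CPM in knockout JQ1 and at 391, 392 and 352 CPM in wild-type JQ1. These ranges overlap, and the log2 difference was -0.01 (95% interval -0.16 to 0.14, adjusted p = 0.960, edgeR). DUSP5 was at 32.1, 34.0 and 41.2 CPM against 41.1, 42.4 and 39.3 CPM (-0.19, adjusted p = 0.266, edgeR). Without knockout JQ1 replicate 3, the library with 41.2 CPM, DUSP5 passed as lower (-0.31, adjusted p = 0.0207, edgeR). SPRY2 was at 280, 276 and 287 CPM against 257, 271 and 250 CPM (0.11, adjusted p = 0.238, edgeR).

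Whether the response to JQ1 differed with genotype was tested as an interaction. None of the 10 passed by edgeR, where 0.134% of all genes did (0.0323% with a positive difference, knockout response minus wild-type response, and 0.101% with a negative one); 1 had an unadjusted p under 0.05, and DESeq2 called 1. Both were DUSP4. Its response was larger in the knockout by 0.40 on the log2 scale (SE 0.096, unadjusted p = 0.000965, adjusted p = 0.203, edgeR). DESeq2 gave 0.38 with an adjusted p of 0.0262, and edgeR with no low-count filter gave 0.38 with 0.0409. Over 19 alternatives the difference ran from 0.32 to 0.45 and the adjusted p from 0.0262 to 0.431. The lowest difference, 0.32, was found without knockout JQ1 replicate 3. The other 9 genes had interaction values from -0.09 for SPRY4 to 0.08 for SPRY2, with intervals that include 0.

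**Figure D3:**
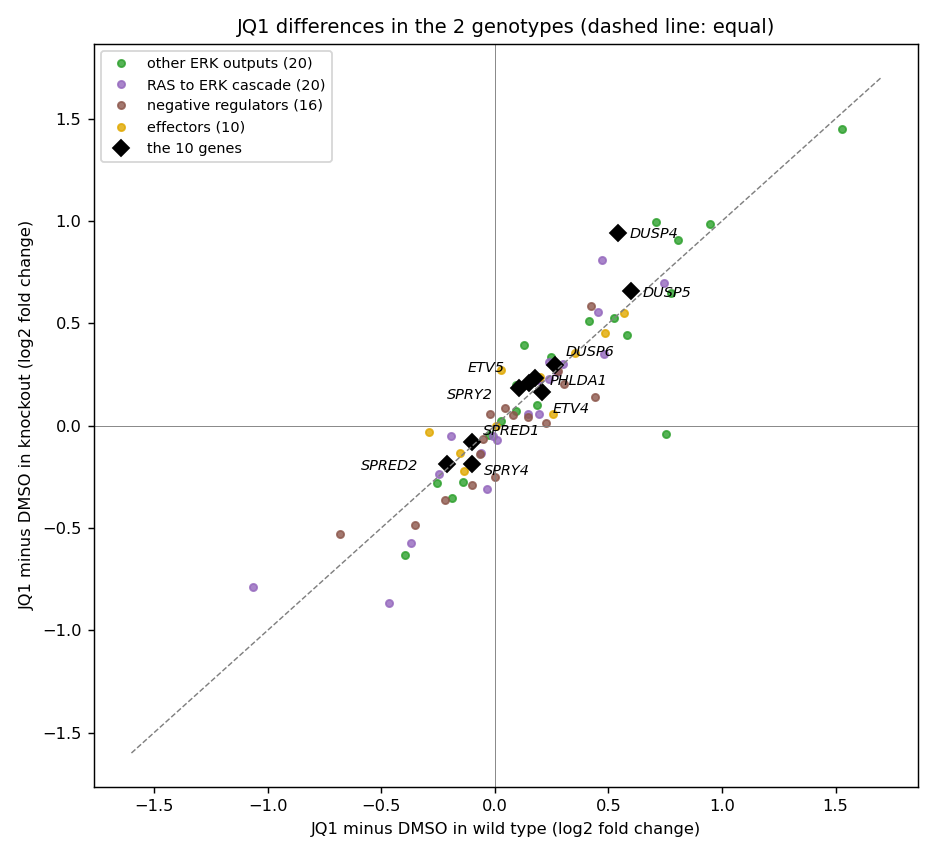
Log2 fold change with JQ1 in wild type (horizontal axis) and in knockout (vertical axis) for the 10 genes (black diamonds) and for the other ERK outputs, cascade genes, negative regulators and effectors (coloured points). The dashed line marks equal values; DUSP4, at 0.54 and 0.94, is the diamond farthest from it.

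The order of the 4 group means differed from gene to gene. PHLDA1 had 4 levels without overlap between neighbours: knockout DMSO, knockout JQ1, wild-type DMSO and wild-type JQ1, from low to high. SPRY4 ran from knockout JQ1 through knockout DMSO and wild-type JQ1 to wild-type DMSO, and its knockout groups overlapped each other. DUSP6 was lowest in wild-type DMSO and highest in knockout JQ1, with knockout DMSO and wild-type JQ1 overlapping between them. DUSP4 and DUSP5 were lowest in knockout DMSO, followed by wild-type DMSO, and their JQ1 groups overlapped. For SPRED1, SPRED2 and ETV5 each neighbouring pair of groups overlapped. SPRED1, SPRED2 and ETV4 passed in none of the 5 comparisons.

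Ratios between pairs of these genes were taken within each library, and they restate the single-gene values. These pairs were chosen after the values were seen, and no test is attached. Some of the single-gene differences behind the ratios did not pass. SPRY4 did not pass with JQ1 in wild type (adjusted p = 0.325, edgeR) or in knockout (adjusted p = 0.0615, edgeR). SPRY2 did not pass between genotypes in DMSO (adjusted p = 0.769, edgeR) or in JQ1 (adjusted p = 0.238, edgeR). In wild-type cells the log2 ratio of SPRY4 to DUSP6 CPM was 0.88 ± 0.038 with DMSO and 0.51 ± 0.038 with JQ1, and in knockout cells it was 0.26 ± 0.14 with DMSO and -0.23 ± 0.17 with JQ1 (SD, n = 3). This ratio was lower in every knockout JQ1 library than in any library of the other groups. The ratio of SPRY4 to SPRY2 followed the same order, at 0.96 ± 0.053, 0.75 ± 0.054, 0.51 ± 0.068 and 0.13 ± 0.11 in these groups. The ratio of DUSP4 to DUSP6 was, in that order, 0.02 ± 0.035, 0.30 ± 0.038, -0.59 ± 0.089 and 0.05 ± 0.17, lowest in knockout DMSO. That of PHLDA1 to DUSP6 divided the genotypes, with 1.64 ± 0.029 and 1.55 ± 0.050 in wild type against 1.08 ± 0.047 and 1.02 ± 0.063 in knockout. Over the 4 groups other ratios differed less, with means from 0.57 to 0.71 for ETV4 to ETV5 and from -1.49 to -1.31 for SPRED2 to SPRED1. That of DUSP5 to DUSP6 ran from -3.70 in knockout DMSO to -2.91 in wild-type JQ1. These ratios are of CPM without regard to gene length, so their change between groups can be read and their level cannot.

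**Figure D4:**
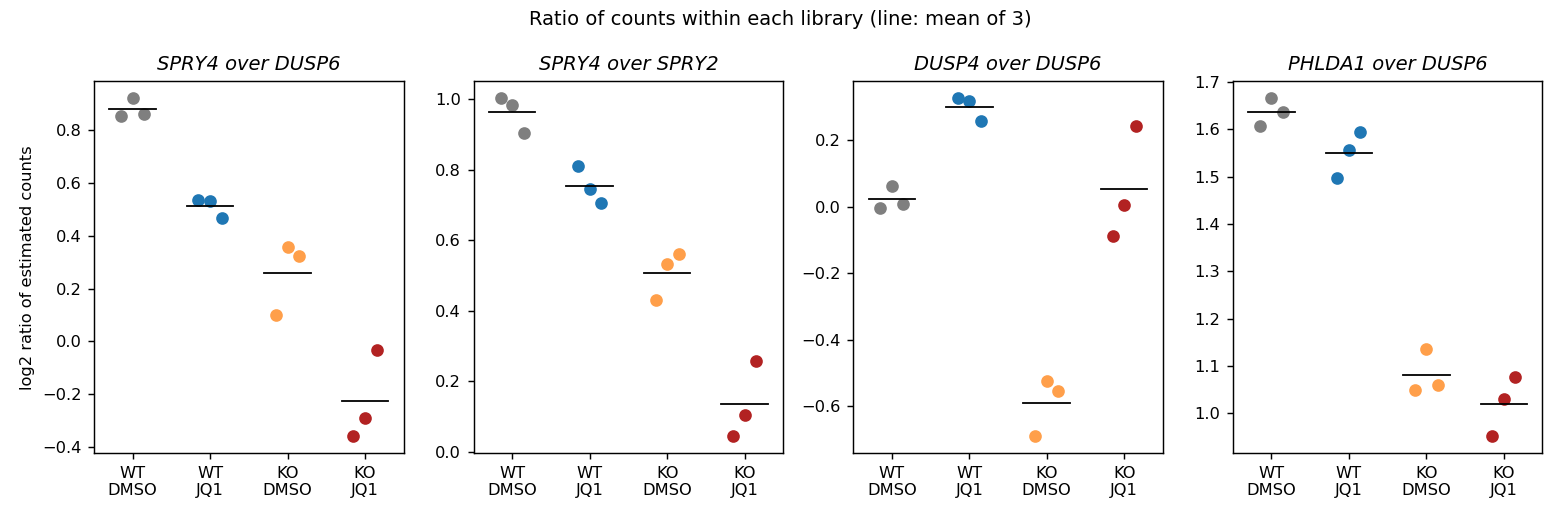
Log2 ratios of CPM between pairs of the 10 genes (vertical axes) in the 4 groups; each point is 1 library and each bar the mean of 3. The ratio of SPRY4 to DUSP6 steps from 0.88 in wild-type DMSO to -0.23 in knockout JQ1.

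Replicates of a group tended to rank alike across the genes. Knockout DMSO replicate 1 was the lowest of its group in 7 of 10 genes, knockout JQ1 replicate 1 in 7, and wild-type JQ1 replicate 3 in 8. Wild-type DMSO replicate 2 was the highest of its group in 8 of 10, and knockout JQ1 replicate 3 in 7. DUSP6 went against this in the knockout, where replicate 1 had its highest values, 301 CPM in DMSO and 371 CPM in JQ1. PHLDA1 was also highest in knockout DMSO replicate 1, and SPRED1 was lowest in replicate 3 of both knockout groups. The same counts were not made over all genes. ETV4 and ETV5 were the closest pair of the 10 over the 12 libraries, with a root mean square difference of 0.064 between their centred log2 CPM values, and SPRY2 and ETV5 came next with 0.065. Genes outside the 10 came closer: USF2 to ETV4 (0.046), FCF1 to SPRY2 (0.042) and ELAVL1 to ETV5 (0.041). ETV4, SPRY2 and ETV5 varied little, with SDs of 0.127, 0.094 and 0.129 over the libraries, against 0.404 for DUSP4.

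Genes whose pattern over the 12 libraries was most like a given one were listed by the same measure among 11251 genes with at least 5 CPM. KIAA1549L (0.064), VAMP1 and CREB3L2 were nearest to DUSP4, and WWC3 (0.048), ARHGAP26 and CNNM4 to DUSP5. PAPSS1 (0.044), TRPC4AP and TRAFD1 were nearest to DUSP6, IRF2BP2 (0.068), NEK6 and HSD3BP5 to SPRY4, and ARHGEF7 (0.046), C1orf198 and MT-CO3 to PHLDA1. None of the other 9 genes was among the 3 nearest of any of these 5.

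The rest of the pathway was read from 5 further lists, with calls by the same edgeR test and log2 fold changes in parentheses. Their counts are to be read against all genes tested, of which 33.1% passed with JQ1 in wild type (16.9% higher, 16.2% lower) and 34.4% in the knockout (16.7% and 17.8%), and 7.92% between genotypes in DMSO (3.47% and 4.44%) and 8.57% in JQ1 (3.01% and 5.56%). Of 8 paralogs outside the 10, none rose with JQ1 and 2 fell in wild type (33.1% of all genes passed), and without knockout JQ1 replicate 3 there were 2 higher and 2 lower. DUSP9, another cytoplasmic ERK phosphatase, went from 9.04 ± 0.60 to 1.41 ± 0.26 CPM (log2 fold change -2.69) and SPRY1 from 17.5 ± 0.17 to 10.9 ± 0.72 CPM (-0.68). The list's median was -0.06 in wild type and -0.05 in the knockout. Both genes fell in the knockout too, DUSP9 by 2.85 and SPRY1 by 0.53; with library totals alone 4 paralogs passed as lower there. These falls are opposite in sign to the rises of DUSP4, DUSP5, DUSP6 and, in the knockout, SPRY2. Between genotypes, DUSP9 was lower in the knockout, by -1.13 in DMSO and -1.29 in JQ1, and these DUSP9 calls and the SPRY1 falls with JQ1 held in 20 of 20 alternatives. SPRY1 passed as higher in the knockout under JQ1 (0.33), a call that held in 14 of 20 and was lost without knockout JQ1 replicate 2 and without wild-type JQ1 replicate 1 or 2. Without knockout JQ1 replicate 3, 2 paralogs passed as higher and 2 as lower in knockout DMSO, where DUSP9 alone had passed.

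Of 20 other transcriptional outputs of ERK, 7 rose and 2 fell with JQ1 in wild type, and 9 rose and 2 fell in the knockout, with medians of 0.22 and 0.27, beside 33.1% and 34.4% of all genes called. With library totals alone the counts were 7 higher and 3 lower and 7 and 5, and the medians 0.09 and 0.15. Without knockout JQ1 replicate 3 the knockout had 7 higher and 4 lower outputs and a median of 0.15. CCND1, which encodes cyclin D1, went from 339 ± 16.3 to 555 ± 9.21 CPM in wild type (0.71) and from 271 ± 9.42 to 539 ± 25.01 CPM in the knockout (0.99). FOS rose by 0.95 and 0.98, and MCL1, a survival protein, by 0.41 and 0.51. In DMSO the knockout had 3 outputs higher and 1 lower than wild type (3 and 3 without knockout JQ1 replicate 3, which lies outside that comparison): MYC (0.50) and EPHA4 (0.36) were among the higher, and CCND1 was the lower (-0.32). CCND1 thus shared with DUSP4 a lower level in knockout DMSO and a large JQ1 step. This was not particular to the outputs. The dedifferentiation marker AXL also was lower in knockout DMSO (-0.32) and rose with JQ1, by 0.92 in wild type and 1.01 in the knockout. Under JQ1, EPHA4 (0.34) and VGF (0.69) passed as higher in the knockout, each in 15 of 20 alternatives, and no output was lower. Without knockout JQ1 replicate 3 this reversed to 1 output higher and 4 lower, and the median went from 0.03 to -0.10. VGF was lost without knockout JQ1 replicate 3 (0.37, adjusted p = 0.0658) or any 1 of the wild-type JQ1 libraries, and EPHA4 without wild-type JQ1 replicate 3 or knockout JQ1 replicate 1 or 2.

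Of 20 genes of the RAS to ERK cascade, 7 rose and 3 fell with JQ1 in wild type, and 7 rose and 4 fell in the knockout, with medians of 0.17 and 0.06, beside 33.1% and 34.4% of all genes called. MAP2K1, which encodes MEK1, rose by 0.45 and 0.55, and MAPK3, which encodes ERK1, fell by 0.47 and 0.87. KSR1, a scaffold, rose by 0.75 in wild type and 0.70 in the knockout, and the wild-type call was lost with the authors' factors as offsets (0.47, adjusted p = 0.206) and with limma on their signal (0.47, adjusted p = 0.205). HRAS rose by 0.47 in wild type and 0.81 in the knockout; the interaction of neither HRAS nor KSR1 passed (adjusted p = 0.533 and 0.971, edgeR). With library totals alone the counts were 4 higher and 4 lower in wild type and 4 and 6 in the knockout. Between genotypes in DMSO none of the 20 passed by edgeR, with 3 at an unadjusted p under 0.05, 1 called by DESeq2 and 2 called without knockout JQ1 replicate 3. Under JQ1, HRAS was higher in the knockout (0.54), and SOS1 (-0.35) and MAPK3 (-0.30) were lower; DESeq2 called 2 higher and 3 lower, and MAPK3 was lost without knockout JQ1 replicate 1 or wild-type JQ1 replicate 1 or 2.

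Of 16 other negative regulators, 4 rose and 3 fell with JQ1 in wild type, and 4 rose and 5 fell in the knockout, with medians of 0.02 and 0.03, beside 33.1% and 34.4% of all genes called. NF1, which switches RAS off, fell by 0.35 and 0.49, CBLB, a ubiquitin ligase, by 0.22 and 0.37, and RASAL2, another RAS-inactivating protein, rose by 0.44 and 0.14. With library totals alone these counts were 2 and 5, and 1 and 7. Without knockout JQ1 replicate 3 the knockout median was -0.04. In DMSO, ERRFI1, a feedback inhibitor of the EGF receptor, was higher in the knockout (0.27), as were PEBP1 (0.21, lost without knockout DMSO replicate 1 or 3 or wild-type DMSO replicate 2) and RASAL2 (0.20, lost without knockout DMSO replicate 1 or 3 or any 1 of the wild-type DMSO libraries). Under JQ1, 1 regulator was higher, SPRY1, which is also among the paralogs, and 2 were lower. NF1 (-0.24) was lost without wild-type JQ1 replicate 2 or 3 and with the authors' factors as offsets (-0.14, adjusted p = 0.168), and CBLB (-0.32) without knockout JQ1 replicate 1 or wild-type JQ1 replicate 1 or 3.

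Of 10 ERK substrates and effector kinases, 3 rose and 1 fell with JQ1 in wild type, and 5 rose and none fell in the knockout, with medians of 0.11 and 0.15, beside 33.1% and 34.4% of all genes called. RPS6KA1, a ribosomal S6 kinase, rose by 0.57 and 0.55, MKNK1 by 0.49 and 0.45, and the ETS factor ELK1 by 0.35 and 0.35. With library totals alone 3 rose and 2 fell in each genotype. In knockout DMSO 4 of the 10 effectors were lower than in wild type and none higher, with a median of -0.20, beside 7.92% of all genes called and 4.44% called lower. The ETS factor ETS1 stood at 52.3 ± 1.42 CPM there against 67.1 ± 0.27 CPM in the wild type (-0.36), RPS6KA2 differed by -0.52, and ELK4 by -0.33, a call lost without each DMSO library in turn. ETS1 was lower under JQ1 too (-0.36), the only gene of the list to pass there by edgeR, where DESeq2 called 3 lower and library totals alone 2. In the interaction no gene of the 5 lists passed by edgeR; at an unadjusted p under 0.05 there were 2 outputs, 3 cascade genes, 2 negative regulators, 1 effector and no paralog, and DESeq2 called 1 output, 1 cascade gene and 1 negative regulator.

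Some of the 10 genes overlap others in GENCODE 29, and whether the counting used the strand is not given in the sources used here. ETV4 overlaps DHX8 on the opposite strand, ETV5 overlaps DGKG on the same strand, and DUSP6 and PHLDA1 have antisense genes, so their values are uncertain to that extent.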

How the data were processed

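RNA was measured in 12 A375 libraries, made per the labels' protocols with a directional kit after depletion of ribosomal RNA. Per the submitters' processing notes, the tools included Trim Galore, cutadapt, kallisto and DESeq2 and the build was GRCh38.p10; versions are not given in the sources used here. The deposited files are estimated counts per gene symbol, not all whole, and a normalized signal from the authors, in which each gene has its own scaling factor in each library. Groups come from the genotype and treatment labels, and columns were matched by name.

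Here the estimated counts were rounded, although whole counts had been planned for. Genes with low counts were removed (filterByExpr), leaving 21698, and all 12 libraries were fitted together with TMM scaling in edgeR 4.0.16 (R 4.3.3), by the quasi-likelihood test with Benjamini-Hochberg adjustment over all genes and a threshold of 0.05. CPM uses the TMM-scaled totals. Alternatives used DESeq2 1.42.0, limma 3.58.1 on log2 of the signal plus 1, other scalings, no filter, a replicate block and each library left out. Exact tests on 3 against 3 cannot go below 0.1 and were not used. The edgeR scripts were tested on simulated data.

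The 10 genes are all named. Each other list is represented, per comparison, by at most the 3 called genes of lowest adjusted p; the nearest genes are the 3 with the smallest root mean square difference in centred log2 CPM (prior count 2). The members and lists were chosen with earlier results of these data known. RefSeq sequences and positions are of GRCh38.p14; the count table holds no coordinates.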

Additional observations from a re-analysis of the deposited data

How the results depend on the processing

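Each comparison was repeated under 20 alternatives (19 for the interaction), 1 of them, the authors' factors as offsets, added after seeing the data. The number of the 10 genes called with JQ1 in wild type was 8 (7 higher, 1 lower) when only the groups compared were fitted, against 4. The interaction had 1 call with DESeq2 and 1 with no low-count filter, against 0. With 1 library left out, the counts ran from 4 to 6 and from 5 to 7 for JQ1 in wild type and knockout, from 3 to 5 and from 3 to 4 for the knockout in DMSO and JQ1, and stayed at 0 for the interaction. The cause of these differences was not tested.

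Differences that changed sign were small and passed in no such setting. With library totals only, SPRY2 was at -0.0230 for JQ1 in wild type and -0.00808 for the knockout in DMSO, ETV4 at -0.0280 for the knockout in DMSO and SPRED1 at -0.0236 for the knockout in JQ1. SPRED1 for the knockout in DMSO was at 0.00856 with DESeq2, 0.00325 with DESeq2 size factors, 0.000977 with limma and 0.00166 with the authors' factors, and in JQ1 at -0.00546 with no filter. DUSP4 for the knockout in JQ1 was at 0.00732 with limma and 0.00992 with the authors' factors. With 1 library left out, the ranges were -0.0875 to 0.0407 for DUSP4, -0.104 to 0.0240 for ETV4 and -0.0179 to 0.0433 for SPRED1 for the knockout in JQ1, and -0.00994 to 0.0933 for ETV4 and -0.0398 to 0.0291 for SPRED1 in DMSO. For the interaction they were -0.0602 to 0.141 for DUSP5, -0.00530 to 0.0517 for DUSP6, -0.0145 to 0.0548 for SPRED1, -0.0612 to 0.0891 for SPRED2, -0.122 to 0.00567 for ETV4 and -0.0193 to 0.112 for ETV5.

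Of 18 same-numbered pairs of libraries, 4 correlated above 0.1 (r from -0.49 to 0.37). Of 12 libraries, 2 correlated best with their own number. The labels do not say what samples of the same number share, and whether they share a culture or batch was not tested. The replicate block gave 4, 6, 4, 3 and 0 calls, as without it.

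Each group had 3 replicates, and the labels leave unsaid whether these are technical and whether the knockout is 1 clone. Interaction intervals reached from -0.23 to 0.34 for DUSP5 and from -0.31 to 0.14 for SPRY4, and differences inside them were not detectable here. Only RNA was measured.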
